A study of Mus musculus with 42 samples.

Results

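The transcripts of 10 enzymes that build or sulfate the sugar chains of mucins and glycolipids were followed across colon segment, *Mtg16* genotype, injury and tumors: the galactose sulfotransferases *Gal3st2c*, *Gal3st2* and *Gal3st1*, the galactosyltransferases *B3galt2* and *B3galt5*, the sialyltransferases *St3gal5* and *St3gal6*, the N-acetylgalactosaminyltransferase *B4galnt2*, the fucosyltransferase *Fut2* and the branching N-acetylglucosaminyltransferase *Gcnt3*. They were chosen by gene symbol, 10 of the 20462 genes listed in at least 1 of 9 tables of normalized counts, and several were selected on their changes in these same tables. Their levels and calls are therefore given as a description of the tables, and none of them is a test of the choice. *Gal3st2b*, the near-identical neighbor of *Gal3st2* and *Gal3st2c*, is given beside them.

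RNA of C57/BL6 mice at least 8 weeks old was sequenced in 42 libraries under 14 conditions. *Mtg16* null mice and mice homozygous for P209T, the *Mtg16* allele with a proline-to-threonine substitution (T/T), came from 2 separate colonies, and each mutant was compared with WT littermates of its own colony. Both alleles were carried in the germline, so all cells of a mouse carried them. Crypts were freed by chelation from the first 5 cm (proximal) or the last 5 cm (distal) of the colon. At baseline there were 2 proximal libraries of each mutant and 2 of the WT of each colony. In the distal colon there were 4 *Mtg16* null and 4 WT libraries of the null colony, and 4 T/T and 3 WT libraries of the T/T colony. After injury with 2% dextran sulfate sodium (DSS) in the drinking water for 5 days and 4 days of recovery, distal crypts gave 4 *Mtg16* null, 3 WT (null colony), 3 T/T and 3 WT (T/T colony) libraries. Distal tumors of T/T and WT mice (3 each) came after 10 mg/kg azoxymethane (AOM) and 3 cycles of 4 days of 3% DSS with 16 days of water. The labels do not say which libraries came from the same mouse, so p-values measure the spread between these libraries.

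Mucus is built by goblet cells, which add long O-linked sugar chains to mucins in the Golgi, and the absorptive cells carry related chains on membrane mucins and on glycolipids. Chains are lengthened with galactose and N-acetylglucosamine and are capped with sialic acid, fucose, N-acetylgalactosamine or sulfate, and the caps differ along the colon. MTG16 (gene *Cbfa2t3*) is a corepressor that binds E proteins, transcription factors that recognize the E box, CANNTG, and the P209T allele was made to weaken that binding.

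*Gal3st2*, *Gal3st2b* and *Gal3st2c* lie in a row on the plus strand of chromosome 1 of GRCm38, at chr1:93861306-93876494, chr1:93918311-93942650 and chr1:93990509-94017147. Their last 3 coding exons have equal lengths, and over these 1162 bases *Gal3st2* and *Gal3st2b* differed at 6 positions (99.5% identity) and each differed from *Gal3st2c* at 24 (97.9%). The second coding exon is shown because its few differences are what a read there can use to tell the genes apart. Capitals mark the positions at which the 3 genes are not all the same, and the exons lie at chr1:93872455-93872541, chr1:93938605-93938691 and chr1:94006918-94007004, all on the plus strand and 5′ to 3′.
Gal3st2 second coding exon: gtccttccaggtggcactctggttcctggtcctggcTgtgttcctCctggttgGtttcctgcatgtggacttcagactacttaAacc
Gal3st2b second coding exon: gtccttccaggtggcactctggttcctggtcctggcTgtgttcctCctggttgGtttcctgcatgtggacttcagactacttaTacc
Gal3st2c second coding exon: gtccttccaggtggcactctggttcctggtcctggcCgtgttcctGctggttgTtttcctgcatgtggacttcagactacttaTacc

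The 100 bases of the last coding exon with the most differences are shown for the same reason. All 8 marked positions there separate *Gal3st2c* from the other two genes, whose letters are the same in this window. The windows lie at chr1:93874852-93874951, chr1:93941002-93941101 and chr1:94009288-94009387.
Gal3st2 window: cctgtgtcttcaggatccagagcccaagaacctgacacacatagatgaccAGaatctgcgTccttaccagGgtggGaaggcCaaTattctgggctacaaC
Gal3st2b window: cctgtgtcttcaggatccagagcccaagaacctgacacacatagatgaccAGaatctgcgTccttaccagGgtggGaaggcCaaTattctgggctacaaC
Gal3st2c window: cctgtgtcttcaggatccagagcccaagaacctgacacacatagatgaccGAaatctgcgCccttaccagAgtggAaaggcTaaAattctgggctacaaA

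Over whole transcripts of GENCODE vM21, 16.2% of the 31-base words of *Gal3st2*, 11.6% of those of *Gal3st2b* and 86.7% of those of *Gal3st2c* occurred in neither of the other two, since the *Gal3st2c* transcript is longer (9667 bases against 2844 and 2722). The split of reads between *Gal3st2* and *Gal3st2b* is therefore uncertain, and the sum of the 3 genes is given where they are compared.

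The other members lie at chr11:3983636-3999326 (*Gal3st1*, plus strand), chr1:143640664-143654614 (*B3galt2*, plus), chr16:96235801-96319859 (*B3galt5*, plus), chr6:72097592-72154571 (*St3gal5*, plus), chr16:58468125-58524243 (*St3gal6*, minus), chr11:95865943-95914891 (*B4galnt2*, minus), chr7:45648591-45666394 (*Fut2*, minus) and chr9:70031496-70038088 (*Gcnt3*, minus). Promoters, from 250 bases before to 50 after a start site, were matched in RefSeq (GRCm38.p6) for 8 of the 10 members. Those of *B3galt2*, *Gal3st2* and *Gal3st2c* are shown, because *B3galt2* and *Gal3st2c* had some of the largest differences between mutant and WT crypts and *Gal3st2* lies in the same row as the latter, with *Gal3st2b* between them. Capitals mark CANNTG, a palindrome in its fixed letters, so that a match holds on both strands. No matches overlap.
B3galt2 promoter, chr1:143640447-143640746, plus strand: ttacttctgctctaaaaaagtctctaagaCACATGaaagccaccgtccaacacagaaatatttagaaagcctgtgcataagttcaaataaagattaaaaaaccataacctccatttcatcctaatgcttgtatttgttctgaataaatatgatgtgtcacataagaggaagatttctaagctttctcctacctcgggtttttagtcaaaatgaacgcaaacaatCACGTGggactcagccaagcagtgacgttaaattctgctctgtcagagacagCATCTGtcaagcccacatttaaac
Gal3st2 promoter, chr1:93861094-93861393, plus strand: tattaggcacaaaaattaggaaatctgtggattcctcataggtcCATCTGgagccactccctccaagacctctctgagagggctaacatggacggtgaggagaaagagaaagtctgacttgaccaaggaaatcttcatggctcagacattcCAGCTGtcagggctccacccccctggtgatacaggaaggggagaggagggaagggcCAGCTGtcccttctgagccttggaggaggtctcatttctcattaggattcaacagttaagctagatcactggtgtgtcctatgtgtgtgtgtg
Gal3st2c promoter, chr1:93990255-93990554, plus strand: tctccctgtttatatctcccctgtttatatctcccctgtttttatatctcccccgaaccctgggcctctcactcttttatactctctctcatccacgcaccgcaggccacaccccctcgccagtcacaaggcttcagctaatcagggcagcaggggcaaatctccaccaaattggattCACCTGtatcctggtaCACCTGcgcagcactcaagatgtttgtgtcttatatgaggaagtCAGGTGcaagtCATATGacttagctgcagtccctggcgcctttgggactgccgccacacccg

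The *B3galt2* promoter held 3 matches to CANNTG, the *Gal3st2* promoter 3 (2 of them CAGCTG) and the *Gal3st2c* promoter 4 (3 of them CAGGTG or its reverse complement). At least 1 match was present in 72.3% of all 32851 promoters of this length, at least 3 in 17.6% and at least 4 in 6.5%. CAGCTG was present in 16.3% and CAGGTG in 20.2%. The promoter of *Gal3st2b* held 1 match, and those of *St3gal5*, *B4galnt2* and 1 of the 3 of *B3galt5* held no match in this window. The other 2 of *B3galt5* held 1 and 3, the 2 of *St3gal6* held 1 and 2, and the 3 of *Gal3st1* held 1 each, which reads CACCTG. These are matches of letters and no measurement of binding.

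Each table gives counts per gene divided by 1 size factor per library, scaled on its own libraries, so a level is compared only within a table and the same library has slightly different values in different tables. Differences are of log2 of the normalized count plus 1, the group named first minus the group it is set against, from limma over all genes of a table with a mean of at least 10, called at a Benjamini-Hochberg adjusted p under 0.05. How many of all genes lie apart between 2 groups without overlap was not counted, and with 2 libraries a side such gaps arise easily. The 38 libraries whose reads could be recovered held 32231389 to 74661922 reads. *Cbfa2t3* itself, the targeted gene, had 424 to 1095 normalized counts in the distal *Mtg16* null libraries against 1027 to 1809 in WT (424 to 694 without the library labelled replicate 2, described next), and 630.6 to 1057 against 1634 to 3221 in the proximal colon, and 427 to 595.5 against 1845 to 2519 after DSS. The distal difference at baseline was -1.11 ± 0.29 (SE, adjusted p = 0.3) in limma with that library, -1.06 (adjusted p = 0.02) in DESeq2 on recovered reads, and -1.33 (adjusted p = 0.036) in limma without it. Which part of the transcript the null allele lacks is not given in the sources used here. T/T libraries, whose allele substitutes 1 amino acid, had 1919, 1813, 1509 and 2196 counts in the distal colon against 937, 985 and 1040.4 in WT, a difference of 0.90 ± 0.13 (SE, adjusted p = 0.25) in limma, which did not pass, and of 0.91 (adjusted p = 2.7e-06) in DESeq2 on recovered reads, which did.

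One library went against its segment label. A score was made of the 50 genes most in favor of each segment in WT crypts (members and listed enzymes and markers left out), as the difference of their mean log2 levels. It lay between -8.56 and -7.29 in the 4 WT proximal libraries and between 5.68 and 6.90 in the 7 WT distal ones. In the table of distal *Mtg16* null crypts it was -7.22 in the library labelled distal *Mtg16* null replicate 2 and 5.55 to 6.60 in the other 3 null libraries. *Hoxd13*, a gene of the hindmost body axis, was at 0 there against 4180 to 5854, and *Hoxb13* at 244.9 against 17409 to 23426. This check was made after the values were seen. Calls of members and markers that use the library are given with and without it, and no library was moved to another group. After DSS the score was lower in mutant than in WT distal crypts, 2.19 to 3.69 against 4.60 to 5.64 for *Mtg16* null and 1.69 to 3.47 against 4.41 to 5.47 for T/T.

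The first comparison asks how the enzymes differ between the 2 ends of the WT colon. 7 of the 10 members were called in WT distal against WT proximal crypts (42.1% of all 13841 genes tested were), 1 higher in the distal colon (20.1% of all genes) and 6 lower (22% of all genes). *Gal3st2*, *Gal3st1* and *B3galt5* were not called. Members may have been picked on this contrast, so nothing is read from the count.

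*St3gal5*, which makes the ganglioside GM3 from lactosylceramide, was a transcript of the proximal colon: it had 569.8 and 669 normalized counts in the WT proximal libraries of the T/T colony and 999 and 1383 in those of the null colony. In the 7 WT distal libraries it lay between 0 and 10.4, with a median of 1.28. The groups did not overlap, and the difference was -8.38 ± 0.57 (SE, adjusted p = 5.6e-08), or -9.67 with 0.1 in place of 1 added to each count, since some distal libraries are at 0. *St3gal6*, which adds sialic acid to galactose in the same linkage but on other chains, ran the opposite way: the 4 proximal libraries had 790.0 and 1100.5 (T/T colony) and 1064 and 943 (null colony), and the 7 distal ones 9087 to 11427 with a median of 9554. It was 10.2-fold higher in the distal colon, a log2 difference of 3.35 ± 0.10 (SE, adjusted p = 3.1e-11).

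*B4galnt2*, which caps sialylated chains with N-acetylgalactosamine to give the Sda antigen, had 38105 and 37629 (T/T colony) and 38488 and 36162 (null colony) in the proximal libraries, and 8689 to 15037 with a median of 10982 in the distal ones. *Gcnt3*, which branches mucin chains into core 2 and core 4, had 21810 and 18549 (T/T colony) and 18835 and 27505 (null colony) proximally, and 2973 to 6069 with a median of 4019.5 distally. *Fut2*, the enzyme of the intestinal H antigen, had 21984 and 19670 (T/T colony) and 17340 and 19136 (null colony) proximally, and 10202 to 14928 with a median of 11429 distally. Each of these 3 enzymes was lower in every distal library than in any proximal one, with log2 differences of -1.78 ± 0.12 (SE), -2.35 ± 0.17 (SE) and -0.70 ± 0.11 (SE).

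**Figure D1:**
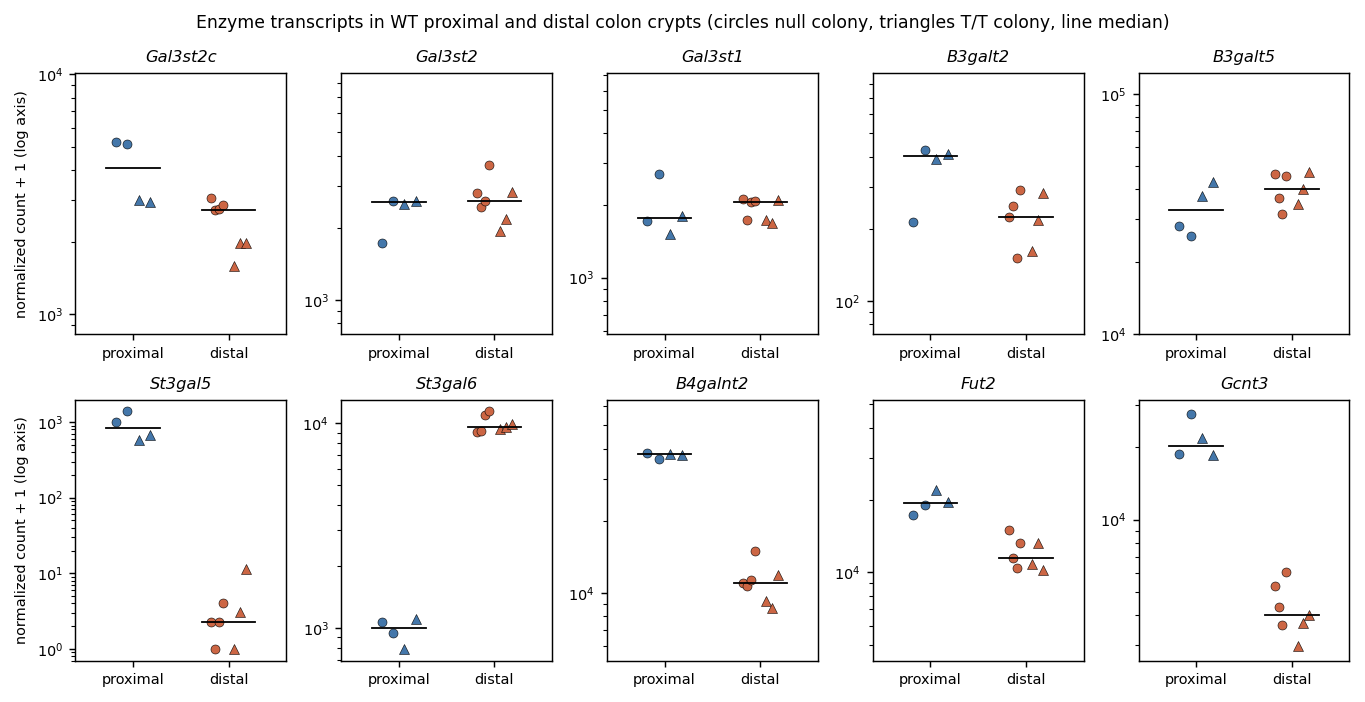
Normalized count plus 1 (log axis) of the 10 enzymes in each WT baseline library, proximal on the left and distal on the right of each panel, with a line at the median. *St3gal5*, *St3gal6*, *B4galnt2*, *Fut2* and *Gcnt3* are apart between the segments, while *Gal3st2*, *Gal3st1*, *B3galt2* and *B3galt5* overlap.

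Among the sulfotransferases, *Gal3st2c* differed by colony as well as by segment. WT proximal crypts had 2994 and 2935 in the T/T colony and 5216 and 5122 in the null colony. WT distal crypts had 1595, 1988 and 1991 in the T/T colony and 3049, 2717, 2735 and 2863 in the null colony. The colonies did not overlap in either segment, also not within the name prefix (the number that opens the name of each library, whose meaning the labels do not give) that holds all 3 distal WT libraries of the T/T colony and 2 of the null colony. In the proximal colon the colonies had different prefixes, so colony and prefix cannot be told apart there. The distal-minus-proximal difference of *Gal3st2c* was -0.73 ± 0.21 (SE, adjusted p = 0.012) with both colonies, -0.86 (adjusted p = 0.00026) in the null colony and -0.68 (adjusted p = 0.0036) in the T/T colony.

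*Gal3st2b* ran against *Gal3st2c*: it had 168 and 165 (T/T colony) and 180.0 and 399 (null colony) in the proximal libraries, and 1384 to 2901 with a median of 2081 in the distal ones, 3.29 ± 0.23 (SE, adjusted p = 7.8e-08). *Gal3st2*, with 1729.6 to 2595 with a median of 2556 proximally and 1942 to 3662 with a median of 2596 distally, overlapped between the segments. Summed, the 3 genes gave a difference of 0.10 (adjusted p = 0.64), of the other sign than *Gal3st2c* alone. *Gal3st1*, which sulfates galactosylceramide to sulfatide, had 1521 to 2708 with a median of 1766 and 1683 to 2128 with a median of 2075, a difference of 0.03 ± 0.13 (SE, adjusted p = 0.9).

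Of the galactosyltransferases, *B3galt2*, which adds galactose to N-acetylglucosamine, had 389 and 411 (T/T colony) and 212 and 425 (null colony) in proximal crypts, and 151 to 289 with a median of 223 in distal ones. The groups overlapped through 1 proximal library of the null colony, and the difference of -0.67 ± 0.23 (SE, adjusted p = 0.029) was -0.44 (adjusted p = 0.39) in the null colony alone and -0.52 (adjusted p = 0.54) within prefix 4149, the one that holds both segments. Leaving out either proximal library of the T/T colony, proximal WT replicate 2 of the null colony or distal WT replicate 1 of the T/T colony also ended the call (adjusted p = 0.051 to 0.096). *B3galt5*, which makes type 1 chains in the gut, was not called. Its proximal libraries had 25627 to 42709 with a median of 32839 and its distal libraries 31419 to 47244 with a median of 40190.

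The other enzymes of the same families, which are no members and were taken as whole families by symbol, were called in 41 of 61 cases between the segments (67.2%, against 42.1% of all genes), 22 higher and 19 lower in the distal colon. The sialyltransferases without members had 7 higher and 3 lower of 12 tested, the galactosyltransferases 3 and 4 of 12, the fucosyltransferases 4 and 1 of 7, the N-acetylglucosaminyltransferases 5 and 3 of 10, the N-acetylgalactosaminyltransferases 2 and 7 of 16, the sulfotransferases 1 and 0 of 2 and the ceramide glycosyltransferases 0 and 1 of 2. The median log2 difference of these 61 genes was 0.04, against 0.01 over all genes.

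The 3 enzymes with the largest called differences in each direction are named here. *St8sia5*, which extends gangliosides with sialic acid, went from 1.84 ± 1.27 to 1958 ± 681 (SD, n = 4 proximal, 7 distal), *Fut9*, which makes Lewis x, from 41.3 ± 16.7 to 1426 ± 425, and *B3gnt7*, which extends lactosamine chains, from 1546 ± 368 to 41639 ± 10607, all higher distally. *B3gnt6*, the core 3 synthase of mucins, went from 2412 ± 402 to 39.6 ± 11.9, *St3gal1*, which sialylates core 1 chains, from 2334 ± 259 to 46.6 ± 23.9, and *B4galnt1*, which converts GM3 to GM2, from 11164 ± 2321 to 663 ± 297, all lower distally. Of the cell type markers, 6 of 10 goblet genes (4 higher, 2 lower distally) and 7 of 7 absorptive colonocyte genes (3 higher, 4 lower) were also called. The summed level was 354806 to 458170 proximally and 543007 to 1004515 distally for the goblet list, and 1039262 to 1386711 and 290892 to 504747 for the colonocyte list, and 10 of the 11 listed goblet genes enter these counts and sums, here and in the other tables. Also called were 7 of 8 enteroendocrine genes (2 higher, 5 lower), 3 of 5 tuft genes (all lower), 4 of 8 immune genes (1 higher, 3 lower), 2 of 7 stromal genes (1 higher, 1 lower), 1 of 5 stem and cycling genes and 2 of 5 epithelial genes (all higher). The enteroendocrine list summed to 17286 to 20829 proximally and 12601 to 15486 distally, and the immune list to 2429.6 to 3814 and 752 to 2056. No marker entered in a sum was at 0 in every library. In crypt RNA fewer cells of a type and less RNA per cell cannot be told apart, and the part of cell types in the enzyme differences was not tested.

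The next comparisons ask what loss of MTG16 does to these transcripts at baseline. In the proximal colon, 0 of the 10 members were called between *Mtg16* null and WT by limma (0.0645% of 13944 genes). An unadjusted p under 0.05 was found for 3 members and for 831 of all genes. None of the 59 other enzymes tested was called, with a median difference of -0.10 against 0.00 over all genes. *Gal3st2c* had 2253 and 2669.6 in the null against 5625 and 5462 in WT libraries, -1.18 ± 0.12 (SE, adjusted p = 0.052). *B3galt2* had 30.2 and 74.8 against 228 and 453, -2.73 ± 0.51 (SE, adjusted p = 0.28), and its difference was -2.09 (adjusted p = 0.52) without null replicate 1 and -3.37 (adjusted p = 0.18) without null replicate 2. *St3gal5* had 669.8 and 691 against 1077 and 1475, -0.89 ± 0.18 (SE, adjusted p = 0.3). *Gal3st2b* was at 116 and 117 against 194 and 426, the sum of the 3 genes differed by -0.76 (adjusted p = 0.23), and the other members differed by -0.37 (*Gcnt3*) to 0.18 (*Gal3st1*) in log2. Of the goblet list 2 of 10 genes were called, *Reg4* lower and *Tff3* higher, and its sum was 575966 to 675655 against 423523 to 494107, without overlap. *Tff3*, a goblet cell peptide, was measured at 58837 and 69247 in the null against 18343 and 22518 in WT libraries. *Clca1*, another secreted goblet cell protein, was at 50145 and 67954 against 57000 and 116224, and the enteroendocrine list summed to 25007 to 38020 against 18432 to 22409. The immune list summed to 3994 to 4814 against 2620.2 to 3873 and the ileal list to 520.0 to 569 against 312 to 327, also without overlap, with only 2 libraries a side. The part of these in the enzyme levels was not tested.

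In the distal colon, 0 of the 10 members were called between *Mtg16* null and WT with all 8 libraries (0.239% of 13831 genes), and 0 of 9 tested without the library labelled replicate 2 (1.04% of 13720 genes). None of the 73 enzymes of the families, members included, was called in either fit. *B3galt2* was low in all null libraries, that library included: 78.8, 52.3, 83.4 and 137 against 228, 254, 155 and 296 in WT. The difference was -1.44 ± 0.31 (SE, adjusted p = 0.16) with it and -1.22 (adjusted p = 0.11) without it, and DESeq2 on recovered reads called this 1 member with it (adjusted p = 0.0046, beside 1.47% of 13626 genes) while edgeR called 0 (0.21% of genes). Without the library edgeR and DESeq2 were not run.

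The values of that library set several other members apart, of which 5 are given here. *St3gal5* was at 1009 there and at 2.32, 4.74 and 8.99 in the other null libraries, against 0 to 3.12 in WT, and passed the minimum of 10 only through it. *St3gal6* was at 1438 against 8625 to 10231 in the other null libraries, and *B4galnt2* at 33145 against 8847 to 10742. *Gcnt3* was at 21804 there against 2856 to 5288, and *Gal3st2c* at 4925 against 1699 to 2715. Without the library, *Gal3st2c* (2406, 1699 and 2715 against 3122, 2790.4, 2812 and 2928), *B4galnt2* (9992, 8847 and 10742 against 11245, 10946, 11693 and 15383) and *Fut2* (8868, 10420 and 9858 against 15285, 11737, 10712 and 13525) were lower in each of the 3 null libraries than in any WT library. Their differences were -0.38 (adjusted p = 0.64), -0.31 (adjusted p = 0.77) and -0.39 (adjusted p = 0.43), and none passed. This fit was made after the values were seen, and the share of all genes lying apart in this way was not counted. *Gal3st2* had 2794, 2622, 1793 and 3121 against 2868, 2510.2, 2669 and 3746, and *Gal3st2*, *Gal3st1* and *B3galt5* overlapped with and without the library. *Gal3st2b* had 1876, 286, 1356 and 2406 against 2276, 2174, 2139 and 2968, with overlap, and the sum of the 3 genes differed by -0.26 (adjusted p = 1) with all libraries. The enteroendocrine markers *Chga*, *Chgb*, *Neurod1* and *Tph1* were called higher in the same table, with a summed list of 33209 to 42285 in null against 12941 to 15468 in WT libraries. Without the library labelled replicate 2 that sum had the same range, and 7 of 8 of these markers were called higher. The goblet list summed to 540880 to 925303 against 736315 to 1027616, and *Clca1* had 81034 to 131908 against 166966 to 255555, the same range without that library. *Tff3* had 47803 to 58636 against 28629 to 38548 (adjusted p = 0.079). Without the library the goblet sum was 540880 to 925303 in null, and *Tff3* (adjusted p = 0.045) was called higher and *Zg16* and *Atoh1* lower. Their part in the enzyme levels was not tested.

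**Figure D2:**
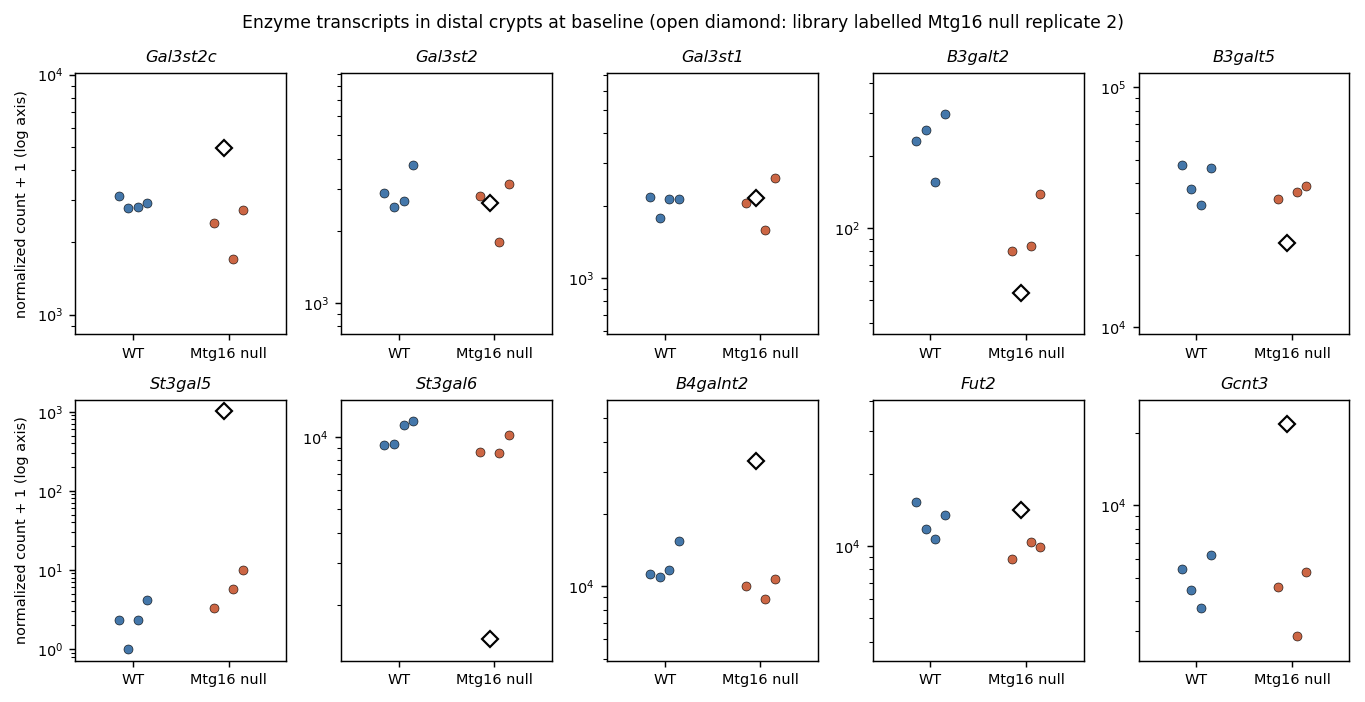
Normalized count plus 1 (log axis) of the 10 enzymes in each distal baseline library of the null colony, WT on the left and *Mtg16* null on the right. The open diamond is the library labelled *Mtg16* null replicate 2. *B3galt2* is lower in all null libraries, and the diamond stands apart for *St3gal5*, *St3gal6*, *B4galnt2* and *Gcnt3*.

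With the P209T allele, 3 of the 10 members were called in the proximal colon (0.232% of 13767 genes): *Gal3st2c* and *St3gal5* were higher in T/T and *B3galt2* was lower. *Gal3st2c* had 7912 and 8291 in T/T against 2910 and 2824 in WT libraries, 1.50 ± 0.08 (SE, adjusted p = 0.0066). *St3gal5* had 1711 and 2071 against 554 and 643, 1.66 ± 0.14 (SE, adjusted p = 0.038), and *B3galt2* 42.3 and 65.4 against 378 and 395, -2.85 ± 0.26 (SE, adjusted p = 0.038). With 2 libraries a side these calls are fragile: without WT proximal replicate 1 of the T/T colony none of the 3 passed in limma (adjusted p = 0.23 to 0.32, beside 0% of genes called and 1036 genes at an unadjusted p under 0.05), without WT replicate 2 *Gal3st2c* alone did (adjusted p = 0.037, beside 0.0508% of genes), and with no filter on low values *B3galt2* and *St3gal5* had an adjusted p of 0.077. With 1 WT library left, the spread comes from the 2 T/T libraries and the fit over all genes, and the lone library is assumed to vary like them. *St3gal6* (393 and 505 against 768 and 1059) and *Fut2* (14126 and 12397 against 21371 and 18921) were lower in both T/T libraries but were not called. *Gal3st2* had 2430.3 and 2452 against 2452 and 2491. *Gal3st2b* was higher in T/T without overlap but was not called, 0.90 ± 0.24 (SE, adjusted p = 0.26), and the sum of the 3 genes differed by 0.98 (adjusted p = 0.038). Of the enzymes that are no members, 2 of 60 were called, *St3gal4*, an alpha-2,3-sialyltransferase (log2 -1.02), and *B3gnt5*, which starts lacto-series glycolipids (log2 -0.98), both lower in T/T. *Tff3* and *Ang4* of the goblet list were called higher, and that list summed to 395244 to 410315 in T/T against 344905 to 351144 in WT. *Clca1* was at 27430 and 36481 against 56312 and 58611 (adjusted p = 0.11). The enteroendocrine list summed to 25055 to 31149 against 16982 to 20248, the colonocyte list to 1183216 to 1231562 against 999711 to 1124360 and the immune list to 2488 to 3169 against 3393 to 3708, without overlap. The tuft list (1222 to 1394 against 1174 to 1206), the stromal list (194 to 926 against 151 to 163) and the ileal list (338 to 438 against 442 to 3678) did not overlap either, and no gene of these 6 lists was called. With 2 libraries a side, gaps of this kind arise easily. The part of these lists and markers in the enzyme differences was not tested.

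The 2 mutants lay on opposite sides of their WT littermates for 2 members in the proximal colon, while *B3galt2* was low in both. The difference between the effects, T/T minus *Mtg16* null, was tested in 1 fit of the 4 groups, added after the values were seen. It was 2.67 ± 0.14 (SE, adjusted p = 0.00064) for *Gal3st2c* and 2.54 ± 0.24 (SE, adjusted p = 0.018) for *St3gal5*, 2 of the 10 members tested against 0.0514% of all 13622 genes, and -0.12 ± 0.66 (SE, adjusted p = 0.99) for *B3galt2*. Without either WT proximal library of the T/T colony, T/T replicate 2 or *Mtg16* null replicate 1, *St3gal5* did not pass (adjusted p = 0.064 to 0.081), while *Gal3st2c* passed without any 1 library. The colonies also differ in prefix, in the WT level of *Gal3st2c* given above (2994 and 2935 against 5216 and 5122) and in that of *St3gal5* (569.8 and 669 against 998.6 and 1383), so that the allele, the colony and the prefix cannot be told apart in this difference.

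In the T/T distal colon at baseline, 0 of 9 members tested were called by limma (0.0369% of 13535 genes). Of them 2 had an unadjusted p under 0.05 in limma, as did 629 of all genes. Among the members edgeR called 0 (0.0369% of genes), and DESeq2 on recovered reads called *B3galt2* (adjusted p = 0.048, beside 0.393% of 13491 genes). *B3galt2* had 16.1, 72.5, 66.7 and 76.5 in T/T against 150.3, 202 and 259.8 in WT, -1.98 ± 0.55 (SE, adjusted p = 0.86), without overlap. *St3gal6* had 6528, 7741, 8327 and 6908 against 8759, 8943 and 9149, -0.28 ± 0.10 (SE, adjusted p = 0.86), also without overlap. *Gal3st2c* overlapped here, with 1274, 1822, 2032 and 1537 against 1498, 1860.3 and 1836. *Gal3st2b* had 1668, 1620.4, 1755 and 1948 against 1299.7, 1874 and 1906, and the sum of the 3 genes differed by 0.02 (adjusted p = 0.98). *St3gal5*, at 0 to 9.58 in all 7 libraries, was too low to test, and the other 6 members differed by -0.16 (*B3galt5*) to 0.05 (*Gal3st1*). None of the 61 other enzymes tested was called, with a median difference of -0.07 against -0.01 over all genes. No listed marker was called, but the goblet list summed to 633596 to 749297 against 508256 to 612818, the enteroendocrine list to 16188 to 24463 against 12776 to 14495, and *Tff3* had 37516 to 50731 against 21086 to 23922 (adjusted p = 0.11), all without overlap. Their part in the enzyme levels was not tested.

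**Figure D3:**
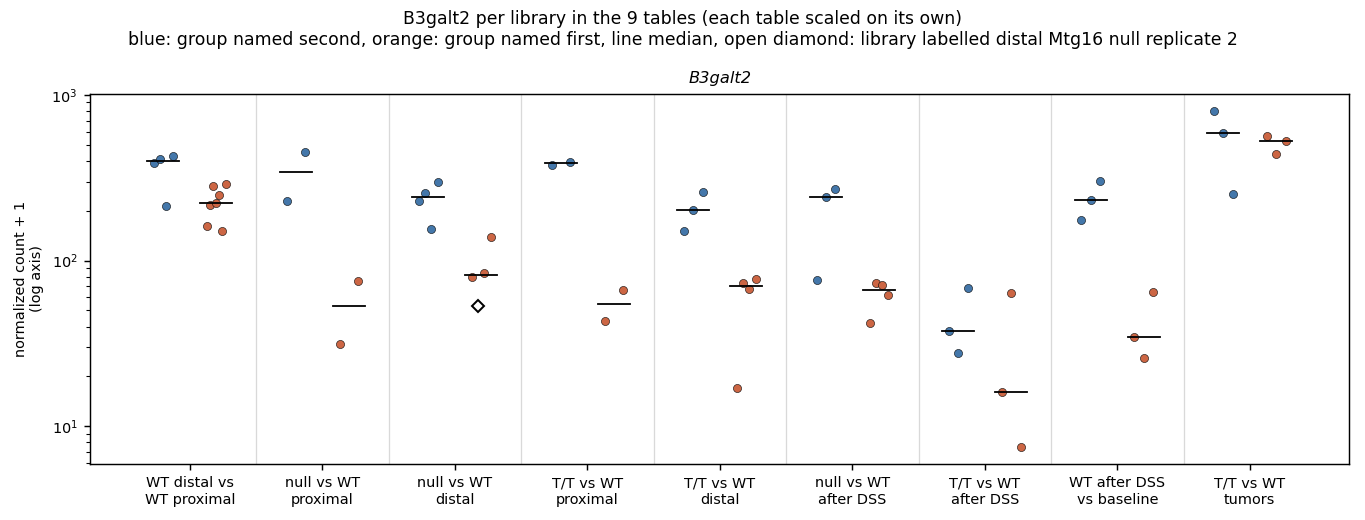
Normalized count plus 1 of *B3galt2* (log axis) in each library of the 9 tables, with the group named second in blue, the group named first in orange and lines at the medians. Mutant crypts lie below WT crypts without overlap in both segments at baseline and in the null colony after DSS; the groups overlap in T/T crypts after DSS and in tumors.

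After DSS, 1 of the 10 members, *Gal3st2c*, was called by limma between *Mtg16* null and WT distal crypts (0.629% of 14476 genes). On recovered reads edgeR also called 1 member (0.601% of genes) and DESeq2 called 4 (5.03% of 14465 genes), *Gal3st2c* -2.25 (adjusted p = 3e-16), *Gal3st2* -0.60 (adjusted p = 0.019), *B3galt2* -1.67 (adjusted p = 0.0064) and *St3gal6* -0.80 (adjusted p = 0.0077), all lower in the null. It had 322, 444, 484 and 435 in null against 1369, 2247 and 2418 in WT libraries, 4.68-fold lower in the null, -2.23 ± 0.24 (SE, adjusted p = 0.0058). *Gal3st2* had 1996, 2195, 2564 and 2716 against 4147, 3250.2 and 3435, *Gal3st2b* 1584, 1430.1, 1738 and 2004 against 3715, 2686 and 2949.7, and the sum of the 3 genes differed by -0.97 (adjusted p = 0.023). None of these 3 genes overlapped between the groups. *Gal3st2b*, which is no member, was not called in limma, -0.88 ± 0.17 (SE, adjusted p = 0.058), but was in DESeq2, -0.88 (adjusted p = 0.00039).

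*B3galt2* had 41, 72.7, 69.9 and 61 in null against 75.7, 239 and 269 in WT, with WT replicate 1 near the null libraries. *St3gal6* had 4502, 7482, 6208 and 6545 against 8791, 11741 and 11803, without overlap. *St3gal5*, low throughout, had 39.8, 16.6, 29 and 33.7 against 18.4, 6.84 and 5.47, overlapping in 1 library a side. In this table libraries of the same replicate number deviated together, and with the replicate number as a block, which pairs the libraries and leaves out the fourth null library, 4 members were called (8.74% of 14490 genes): *Gal3st2c* -2.25 (adjusted p = 0.00011), *Gal3st2* -0.68 (adjusted p = 0.017), *B3galt2* -1.50 (adjusted p = 0.012) and *St3gal6* -0.85 (adjusted p = 0.0023), all lower in the null. With the same block limma also called *Gal3st2b*, -0.97 (adjusted p = 0.0023). *Gal3st1*, *B3galt5*, *B4galnt2*, *Fut2* and *Gcnt3* overlapped between the groups.

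Among the enzymes that are no members, 1 of 66 was called, *B4galnt1*, which was higher in the null, from 1736 ± 301 to 4811 ± 1157 (SD, n = 3 WT, 4 null). Of the immune list 1 of 9 genes was called, *Lyz2*, higher in the null, and the list summed to 6104 to 18678 in null against 1597 to 3867 in WT, and *Clca1* had 28675 to 74377 against 118835 to 210339 (adjusted p = 0.081). *Tff3* had 56708 to 116963 against 33556 to 53583 (adjusted p = 0.14). Of the other markers, *Ang4* (goblet list), *Neurog3* (enteroendocrine) and *Guca2a* (colonocyte) were called higher, and *Atoh1* (goblet list), *Dclk1* and *Trpm5* (tuft) and *Fabp6* (ileal) lower. The enteroendocrine list summed to 28201 to 30163 against 15304 to 21100, without overlap. The segment score given above was also lower in each null library than in any WT library, and the part of these in the enzyme differences was not tested.

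In T/T crypts after DSS, 0 of 9 members tested were called by limma (0% of 13648 genes). At an unadjusted p under 0.05 there were 1197 genes and 2 members, DESeq2 called 334 genes (2.45%) and 0 of the members, and edgeR called 0 genes. *Gal3st2* had 1619.6, 2773 and 2356 in T/T against 4448, 3541 and 4418 in WT and *Gal3st2b* 881, 1746 and 1641 against 3316, 2917 and 2998, both without overlap. DESeq2 called *Gal3st2b* -1.10 (adjusted p = 0.045), and the sum of the 3 genes differed by -1.10 (adjusted p = 0.26) in limma. *Gal3st2c* spread widely in both groups, with 265, 721 and 78.2 against 762, 644 and 2197, -2.05 ± 0.85 (SE, adjusted p = 0.57), or -2.82 (adjusted p = 0.32) without T/T replicate 2 and -1.23 (adjusted p = 0.31) without T/T replicate 3. *B3galt2* spread in the same way, with 15, 63 and 6.52 against 36.7, 26.7 and 67.2, a difference of -1.07 ± 0.81 (SE, adjusted p = 0.75), or -1.92 (adjusted p = 0.42) and -0.37 (adjusted p = 0.73) without the same libraries. *B4galnt2* had 14713, 15180 and 11518 against 17230, 17352 and 16796, without overlap. *Fut2* and *Gcnt3*, with differences of 0.12 and 0.10, and *B3galt5*, with -0.08, had nearly the same level in both groups. The goblet list summed to 712997 to 819368 in T/T against 1179973 to 1355237 in WT and the immune list to 2311 to 3012 against 723 to 1261, with none of their genes called. *Clca1* had 28711 to 88144 against 138756 to 224666 and the ileal list summed to 479 to 624 against 1064 to 1327, also without overlap, and the part of these in the enzyme levels was not tested.

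**Figure D4:**
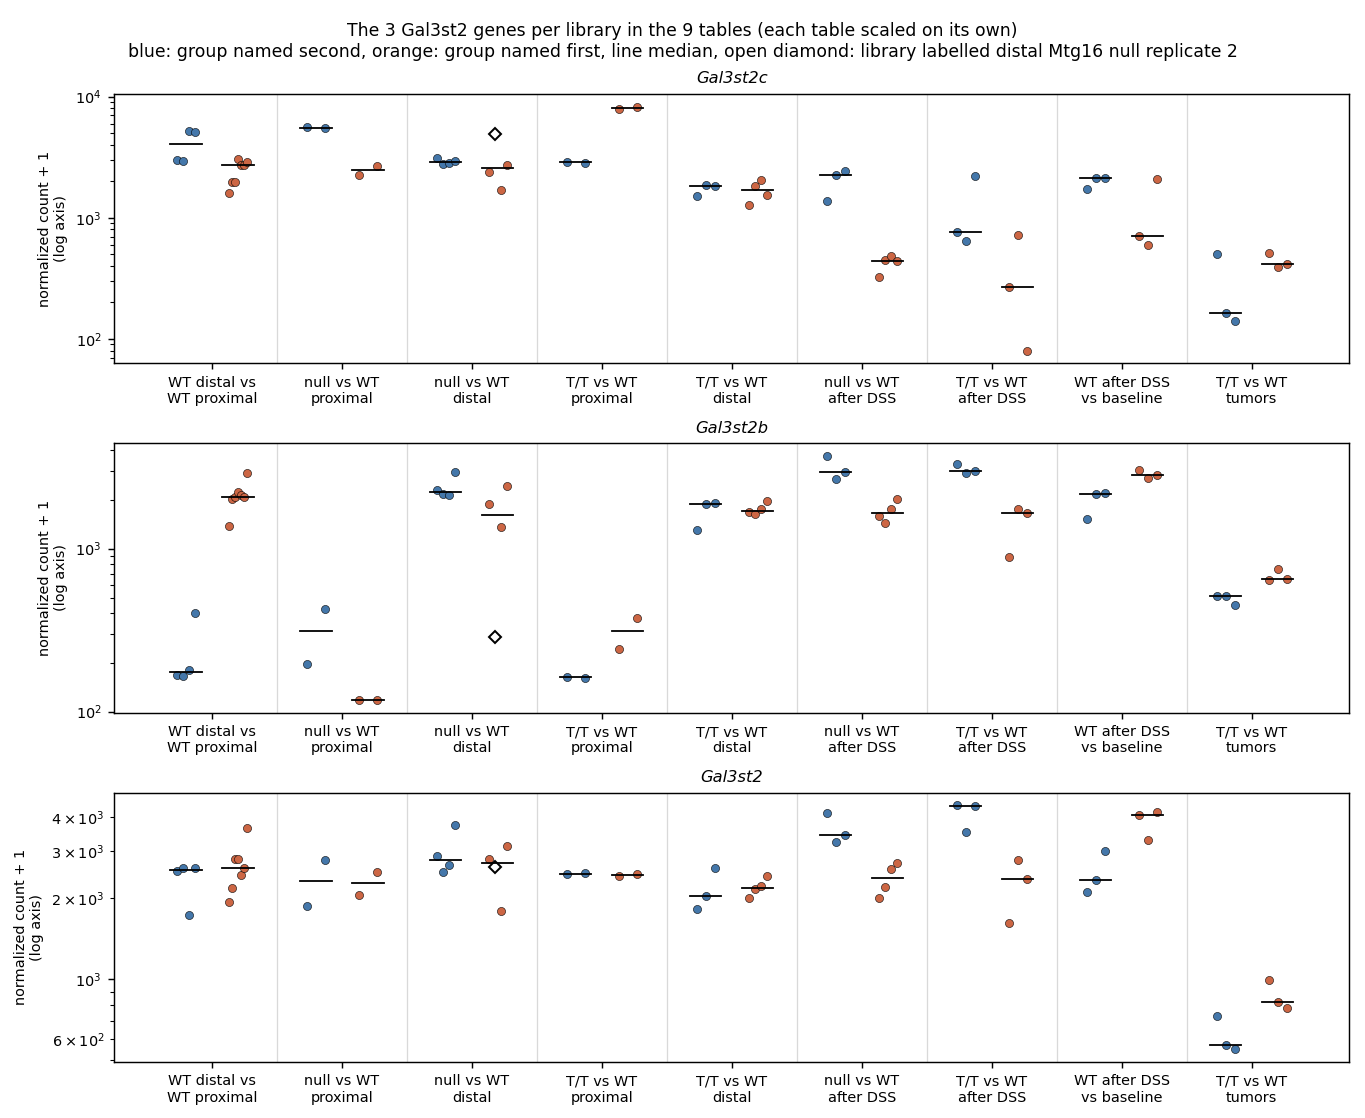
Normalized count plus 1 (log axis) of *Gal3st2c*, *Gal3st2b* and *Gal3st2* in each library of the 9 tables, with the group named second in blue, the group named first in orange and lines at the medians. *Gal3st2c* is lower in *Mtg16* null and higher in T/T than in WT proximal crypts and lower in null crypts after DSS, while *Gal3st2b* separates the colon segments.

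WT distal crypts of the T/T colony after DSS were also compared with those at baseline. 5 of 9 members tested were called (35.6% of 13566 genes), 3 higher (14% of all genes) and 2 lower after DSS (21.6% of all genes). *B3galt2* had 33.8, 24.8 and 63.6 after DSS against 175, 232 and 300.2 at baseline, 5.96-fold lower, -2.58 ± 0.39 (SE, adjusted p = 0.0098). *St3gal6* had 4999, 4536 and 6752 against 10177, 10262 and 10571, -0.95 ± 0.16 (SE, adjusted p = 0.012). *Fut2* had 24076, 23006 and 18402 against 11865, 14273 and 10870, 0.82 ± 0.15 (SE, adjusted p = 0.014), and was higher after DSS.

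*B4galnt2* had 15851, 16093 and 15907 after DSS against 10120, 9332 and 12643, and *Gal3st2* 4092, 3284 and 4184 against 2119, 2348 and 2992, both called higher, with differences of 0.59 ± 0.13 (SE, adjusted p = 0.021) and 0.64 ± 0.17 (SE, adjusted p = 0.032). None of the 5 called members overlapped between the groups. *Gal3st2b*, which is no member, was also called higher, 0.57 ± 0.17 (SE, adjusted p = 0.043), without overlap. *Gcnt3* had 5322, 4676 and 6777 against 3244, 4002 and 4283, without overlap but not called. *Gal3st2c* had 701, 597 and 2081 against 1740.4, 2135 and 2121, so that 1 library after DSS lay at the baseline level, and the sum of the 3 *Gal3st2* genes differed by 0.28 (adjusted p = 0.22). All baseline libraries have the prefix 5094 and all libraries after DSS the prefix 5740, so DSS and prefix cannot be told apart. In the WT libraries of the null colony after DSS, given above, every *B3galt2* and *St3gal6* value was higher than any value after DSS here. Those libraries were scaled in another table, and they were not compared with their own baseline. The calls also rest on single libraries: limma called 0 members without WT baseline replicate 2 (0.00739% of genes) or WT after-DSS replicate 1 (3.78%), 1 without WT baseline replicate 1 (5.05%), and 8 without WT after-DSS replicate 3 (66.9% of genes). The differences of the 5 called members kept their sign without any 1 library.

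The other enzymes of the families were called in 37 of 61 cases (60.7%, against 35.6% of all genes), 25 higher and 12 lower after DSS, with a median difference of 0.17 against 0.00 over all genes. *B3gnt6* (41.7 ± 6.83 to 444 ± 182, SD, n = 3 and 3), *St3gal1* (41.2 ± 10.7 to 270.4 ± 155) and *B4galnt1* (813 ± 246 to 3667 ± 1282), the 3 named above as lower in distal than in proximal crypts, were those with the largest rise. *Fut9* (1516 ± 112 to 106 ± 44.5), *B3gnt5* (7554 ± 878 to 1054 ± 576) and *C1galt1*, the core 1 synthase (11991 ± 356 to 2252 ± 1729), had the largest fall. 6 of 10 goblet markers were called higher, with a summed list of 1117559 to 1246736 after DSS against 583224 to 711983, and the cycling genes *Mki67* and *Top2a* were called lower, with a summed stem and cycling list of 4638 to 8212 against 23544 to 41771. In the WT libraries of the null colony after DSS, scaled in another table, the stem and cycling list summed to 26608 to 44314. Called higher were also the enteroendocrine genes *Chga*, *Pyy*, *Gcg* and *Sct* (4 of 8), *Guca2a* (colonocyte), *S100a9* (immune), *Col1a1* and *Col3a1* (stromal) and *Cdh1* and *Vil1* (epithelial), and called lower were *Slc26a3* (colonocyte) and *Ptprc* (immune). The segment score was 4.29 to 5.37 after DSS against 5.75 to 6.55 at baseline. Their part in the enzyme levels was not tested. The split of all called genes depended on the scaling: 39.3% were higher after DSS here, 45% after TMM scaling and 49.8% in edgeR. The 5 called members kept their direction in each.

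In tumors, 0 of the 10 members were called by limma between T/T and WT (0% of 15900 genes). At an unadjusted p under 0.05 there were 392 genes and 1 member, DESeq2 called 24 genes and 0 of the members, and edgeR called 0 genes. *Gal3st2* had 996, 823 and 779 in T/T against 729, 569 and 548 in WT tumors, without overlap, and *Gal3st2c* 507, 389.9 and 412 against 498, 162 and 139.7, with overlap. *Gal3st2b* had 640.0, 749 and 646 against 509, 511 and 449, and the sum of the 3 genes differed by 0.55 (adjusted p = 1). *B3galt2* had 563, 439 and 529 against 797, 591 and 253, a difference of 0.04 ± 0.39 (SE, adjusted p = 1). *B4galnt2* had 1969.6, 2040.2 and 848 against 2571, 575 and 818, with overlap and a difference of 0.50 ± 0.56 (SE, adjusted p = 1), or 1.13 (adjusted p = 0.57) without WT replicate 1, and *St3gal5* had 57.5, 83.9 and 49.1 against 68.5, 43.1 and 54.3. None of the 74 other enzymes tested was called. The tumors were whole pieces and not crypts, and their immune lists summed to 64643 to 147103 (T/T) and 52540 to 154952 (WT), their stromal lists to 137044 to 227772 and 133617 to 183075. The enteroendocrine lists summed to 5004 to 9402 (T/T) and 1362 to 5163 (WT), with overlap. *Tff3* had 14434 to 22552 in T/T against 7380 to 13081 in WT tumors, without overlap. Their part in the enzyme levels was not tested.

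**Figure D5:**
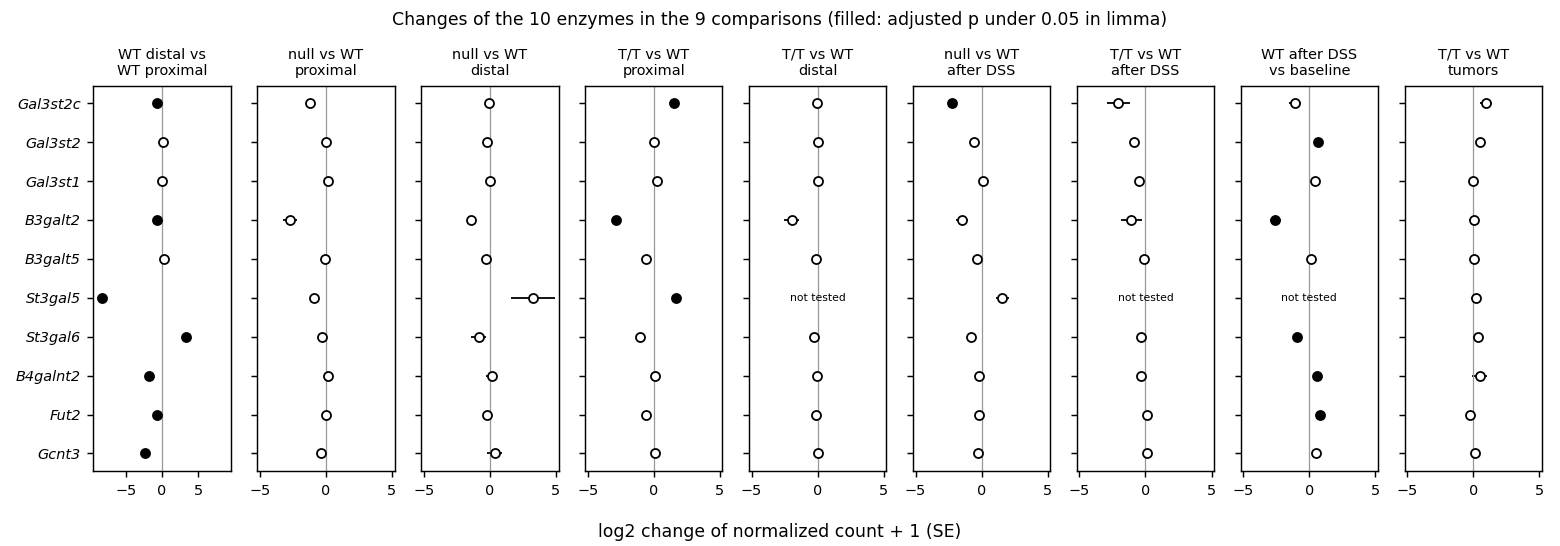
Log2 change of the 10 enzymes (points, with SE bars) in the 9 comparisons, filled where limma's adjusted p was under 0.05; the first panel has a wider axis. *B3galt2* lies left of 0 in all panels but the last, and *Gal3st2c* lies on opposite sides of 0 in the proximal null and T/T panels.

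Whether an effect differed between settings was tested for 6 further pairs of tables, and limma called 0 of the members in any of them with all libraries. The *Mtg16* null effect, proximal minus distal, had 0% of all genes called (324 genes and 1 member, *Gal3st2c*, at an unadjusted p under 0.05). The T/T effect, proximal minus distal, also had 0% called (435 genes and 3 members, *Gal3st2c*, *St3gal6* and *Fut2*, at an unadjusted p under 0.05), and for *Gal3st2c* it was 1.57 ± 0.25 (SE, adjusted p = 0.27). The T/T minus the *Mtg16* null effect had 0% of genes called in the distal colon at baseline (267 genes and 0 members at an unadjusted p under 0.05) and 0.00739% after DSS (560 genes and 0 members at such a p). The *Mtg16* null effect after DSS minus that at baseline had 0% called (419 genes and 1 member at an unadjusted p under 0.05), and the T/T effect after DSS minus that at baseline had 0.0982% called (1425 genes and 3 members at an unadjusted p under 0.05).

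Of these pairs, 3 use the library labelled distal *Mtg16* null replicate 2. Without it, the *Mtg16* null effect between the segments called 0 of 9 members (0.0226% of all genes) and the T/T minus the *Mtg16* null effect in the distal colon called 0 of 9 (0.0149%). The *Mtg16* null effect after DSS minus that at baseline called 1 of 9 members (0.111% of all genes), *Gal3st2c*, at -1.84 ± 0.29 (SE, adjusted p = 0.024), against -2.13 ± 0.38 (SE, adjusted p = 0.3) with the library. The libraries after DSS and at baseline had different prefixes.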

How the data were processed

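RNA-seq of colon crypts and tumors was analyzed from 9 tables, 1 per comparison, with 42 libraries in 59 columns (0 columns went unused). Per the authors and the submitters' processing notes, reads were trimmed (fastp 0.20.0), quantified on mouse transcripts (Salmon 1.3.0) and normalized in DESeq2 1.26.0 (R 3.6.3). The deposited signal values are estimated counts per gene divided by 1 size factor per library, with no length correction. The tables also hold fold changes and p-values of the study's own contrasts, which were not used.

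Groups follow the labels. Members and enzyme and marker lists were chosen with earlier results of these data known. The 10 members, *Gal3st2b*, *Cbfa2t3* and, in each comparison, up to 3 other enzymes per direction with the largest called change and a mean of at least 100 are named, with cell type markers beside some results; *Hoxd13* and *Hoxb13* were chosen after their values were seen.

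limma 3.58.1 (trend, R 4.3.3) was fitted to log2(normalized count + 1) of all genes with a mean of at least 10, with Benjamini-Hochberg adjustment, called under 0.05. The fits were tested on simulated data. Dividing by the smallest step gave whole reads for 100% of values (tolerance 0.1) in 38 libraries (32231389 to 74661922 reads, median 46659625), not in the 2 tables of mutant and WT proximal crypts (4 mutant libraries without reads). The 16 library pairs shared by 2 tables had equal reads. edgeR 4.0.16 and DESeq2 1.42.0 were run on recovered reads as alternatives, beside another pseudocount (0.1), no filter, TMM scaling, the replicate number as a block, the name prefix of a library as a covariate, single colonies or prefixes, the 3 *Gal3st2* genes summed, and each library left out. The proximal difference of effects and the fits and marker sums without distal *Mtg16* null replicate 2 were examined after seeing the data.

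The numbers were taken to pair libraries where r of their deviations was over 0.1 in each of at least 3 pairs, which held in *Mtg16* null against WT after DSS alone (r = 0.55, 0.46 and 0.32). This pairing comes from the data, since the labels do not state it, and the block is printed beside that result. Sequences are from GRCm38 with GENCODE vM21 and from RefSeq promoters of GRCm38.p6.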

Additional observations from a re-analysis of the deposited data

Results flagged for a closer look

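In the distal crypts of the null colony, the library labelled *Mtg16* null replicate 2 stood apart from the other 3 null libraries for *St3gal5* (1009 against 2.32 to 8.99), *B4galnt2* (33145 against 8847 to 10742) and *Gcnt3* (21804 against 2856 to 5288). The part of the sample's origin in these values was not tested beyond the segment genes given in the report.

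Single libraries also stood apart from their group in 5 other cases. *Gal3st1* was at 1778 in distal WT replicate 2 of the null colony against 2133 to 2179 in the others, and replicate 4 of the same group was high for *B4galnt2* (15383 against 10946 to 11693) and *Gal3st2b* (2968 against 2139 to 2276). *B3galt2* was at 16.1 in T/T distal replicate 1 against 66.7 to 76.5. *B4galnt2* was at 8849 in *Mtg16* null replicate 1 after DSS against 11899 to 12220. Over the 48 sets of 4 values examined, each of 1 gene in 1 group of a table, chance alone marks about 1 in 20.

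The difference between the T/T and the *Mtg16* null effect in the proximal colon passed for *Gal3st2c*, 2.67 ± 0.14 (SE, adjusted p = 0.00064), and for *St3gal5*, 2.54 ± 0.24 (SE, adjusted p = 0.018). The libraries of the 2 colonies carry different name prefixes, so allele, colony and prefix cannot be told apart.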

How the results depend on the processing

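The log2 differences of the members were computed under 1130 alternatives in all. Of these, 1116 moved by less than the spread between libraries, 13 moved by more and 1 difference that had been called changed sign: *Gal3st2c* between the WT segments, at 0.10 (adjusted p = 0.64) with the 3 *Gal3st2* genes summed. Including it, 62 differences had the other sign, 39 of them without 1 library. Among those that had not been called were *Gal3st2c* in WT after DSS (-1.06, summed 0.28) and, without *Mtg16* null distal replicate 2, *Gcnt3* (0.36, then -0.24) and *B4galnt2* (0.13, then -0.31). Of 333 alternatives for counts of called members and enzymes, 291 stayed within 1.5 times the main count. Leaving out 1 library gave 5 to 7 members in the segment comparison, 0 to 3 for T/T proximal crypts (0 without WT replicate 1, 1 without WT replicate 2), 1 to 2 for *Mtg16* null after DSS and 0 to 8 for WT after DSS. The enzyme list ranged from 44 to 50 of the segment comparison's 48, 0 to 1 in *Mtg16* null proximal, 0 to 6 of 5 in T/T proximal, 1 to 4 of 2 in *Mtg16* null after DSS and 0 to 57 of 42 in WT after DSS. The number of members with a difference of effects ranged from 0 to 1 for *Mtg16* null after DSS minus baseline and from 1 to 2 for T/T minus *Mtg16* null in the proximal colon.

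With the replicate block, 2 members and 3 enzymes (the enzyme list includes the members) were called in *Mtg16* null proximal, 5 and 13 in T/T proximal, 4 and 18 in *Mtg16* null after DSS, and 3 and 24 in WT after DSS. Outside *Mtg16* null after DSS the replicate numbers were not shown to pair libraries. The block called 32 genes in place of 9 in *Mtg16* null proximal, 1 in place of 33 in *Mtg16* null distal, 151 in place of 32 in T/T proximal, 0 in place of 5 in T/T distal, 1266 in place of 91 in *Mtg16* null after DSS and 2679 in place of 4833 in WT after DSS. For the differences of effects it called 1 gene in place of 0 for the T/T effect between segments and for *Mtg16* null after DSS minus baseline, 0 in place of 1 for T/T minus *Mtg16* null after DSS, 0 in place of 13 for T/T after DSS minus baseline, and 26 in place of 7 for T/T minus *Mtg16* null in the proximal colon. It changed no other count of called members. DESeq2 called 1 member and 2 enzymes in *Mtg16* null distal (200 genes), 1 and 1 in T/T distal (53 genes), 4 and 16 in *Mtg16* null after DSS (727 genes), 0 and 2 in T/T after DSS (334 genes in place of 0) and 24 genes in tumors. With no filter on low values, 1 member and 1 enzyme were called in T/T proximal (2 genes), and 1 gene in tumors. Of the enzymes, 31 were called between segments within name prefix 4149, and all genes called there fell from 5824 to 2014, to 3189 with prefix as a covariate and to 3540 in the null colony alone. In *Mtg16* null distal, prefix as a covariate called 8 genes, prefix 4149 alone 2 and prefix 5094 alone 0. The cause of these shifts was not tested.

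*Gal3st2*, *Gal3st2b* and *Gal3st2c* share most of their coding sequence, which limits how their reads can be split. Leaving out 1 library moved the genes called in WT after DSS between 1 and 9086.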
